A study of Mus musculus with 8 samples.

Results

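The adherent stroma that grows out of a wild type (WT) mouse spleen in culture was compared with the splenocytes that wash out of a fresh WT spleen, to ask which cell types the passaged culture held. Probes entered the comparison when they were detected (detection p below 0.05) on both arrays of at least 1 of these groups, a rule met by 11569 of the 24613 probes on the array, which name 8424 of 15967 genes. Of the 8 arrays of the series, 4 belong to the comparison, 2 of cultured WT stroma and 2 of WT splenocytes. The other 4, of freshly isolated stroma from WT (LTbR+/+) and lymphotoxin beta receptor deficient (LTbR-/-) mice, entered the joint normalization and the estimate of the spread between arrays and are shown for reference.

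All mice were C57BL/6 and 8 to 10 weeks old, and the mice behind both groups compared carried the LTbR+/+ genotype and received no treatment that the labels name. Splenocytes were the wash from spleens rubbed over a 70 µm mesh. For the culture, spleens were cut with scissors and plated whole in DMEM with 10% fetal bovine serum, non-adherent cells were washed away on day 5 to 7, and the cells were replated weekly from day 14 until RNA was taken at week 3 to 4, in passage 2 to 3. No cell type was sorted, so both groups are mixtures, and the groups differ in culture as well as in cell type. These 2 differences cannot be told apart in this design, and in bulk RNA fewer cells of a type cannot be told from less RNA per cell. The sources differ on whether the paired arrays of a sample type are repeat hybridizations of 1 extract or separate biological samples, so every p-value below measures the spread between arrays, which may be technical.

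The spleen filters blood in its red pulp, where macrophages remove aged red cells and recycle their iron, and holds lymphocytes in its white pulp. Both are supported by non-haematopoietic stroma: reticular fibroblasts that build collagen fibres and secrete chemokines, contractile cells of the capsule and trabeculae, and the endothelium of arteries and sinuses. Fibroblasts and macrophages attach firmly to plastic, whereas lymphocytes and red cell precursors do not. Fibroblasts are also a source of colony stimulating factor 1, the main survival factor of macrophages.

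The 4 arrays were alike in quality. Between 9900 and 11179 probes were detected on each, the median bead signal lay between 59.6 and 66.6, and the paired arrays correlated at r = 0.989 in the culture and 0.992 in splenocytes across probes. Signals below are background corrected, quantile normalized and on the log2 scale, where the lowest signal of a detected probe lay between 4.82 and 5.09 on the 4 arrays. Where neither array of the lower group detected a gene, the fold is a bound against that detection limit and is written "at least".

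The 2 populations differed over most of what they expressed. By limma's moderated test with Benjamini-Hochberg adjustment, 3599 probes (31.1%) were higher and 3682 (31.8%) lower in cultured stroma, and 8495 probes were detected on both arrays of both groups. Taken as 1 probe a gene, 2676 of 8424 genes rose (31.8%) and 2639 fell (31.3%). Among the 6458 genes detected on every one of the 4 arrays the shares were 30.0% and 28.4%. The median log2 change over all genes was -0.06. Of 1320 genes with several tested probes, 45 had probes called in opposite directions. A gene that passed the detection rule through a single group tends to differ by the way it was chosen, so the main lists below are given with their tested members and with those detected in both groups, and each count is read beside these shares.

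**Figure D1:**
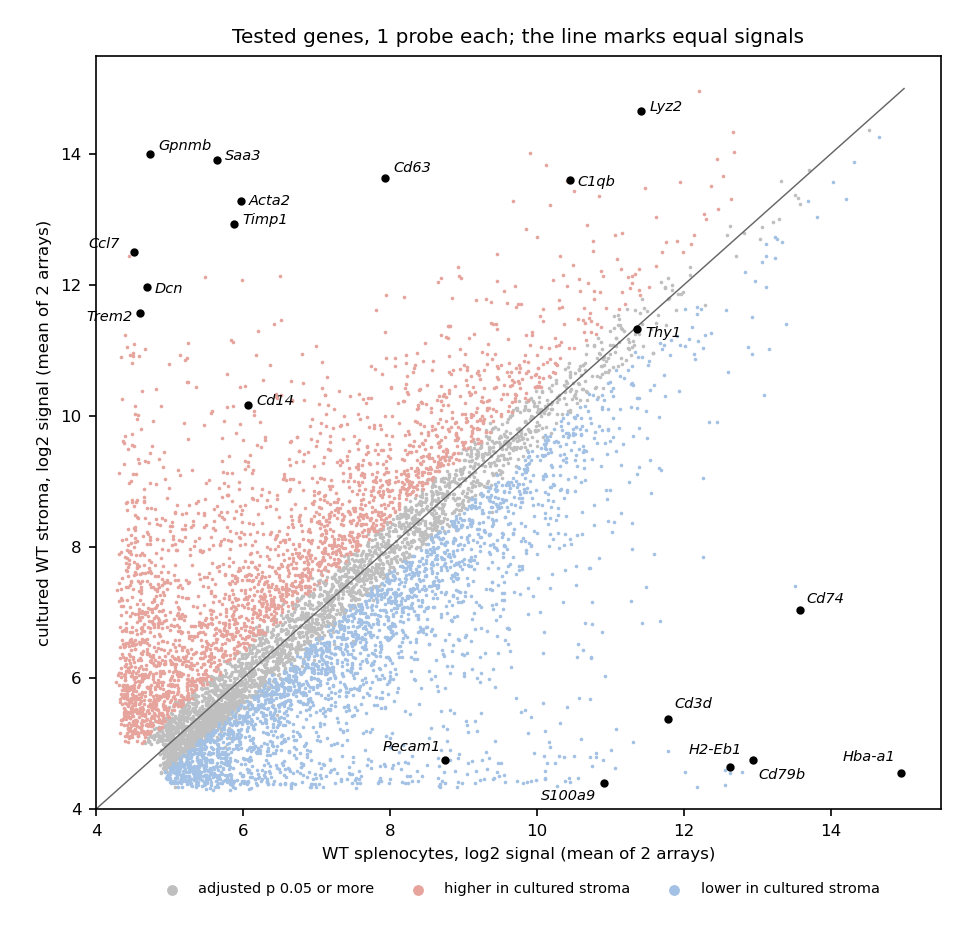
Mean log2 signal of each tested gene in WT splenocytes (x axis) and in cultured WT stroma (y axis), with genes called higher in red, lower in blue and uncalled in grey. *Gpnmb*, *Acta2*, *Dcn* and *Trem2* sit at the upper left, high in culture and near the detection limit in splenocytes. *Hba-a1*, *Cd79b* and *H2-Eb1* sit at the lower right, and *Thy1* lies on the line of equal signals.

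Fibroblast genes were present in the culture and mostly undetected in splenocytes. Of 27 listed fibroblast genes on the array, 21 were tested, 20 rose and none fell, with a median log2 change of 2.24, and 17 of the 27 were detected on neither splenocyte array. Among the 7 detected in both groups 6 rose. *Col1a1*, a chain of type I collagen, read 9.09 and 9.60 on the culture arrays and 4.56 and 4.58 on the splenocyte arrays. Both culture arrays thus lay far above both splenocyte arrays, which did not detect the gene, and the difference was at least 22.3-fold (adjusted p = 2.63e-09).

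*Dcn*, which encodes the collagen-binding proteoglycan decorin, read 11.92 and 12.03 in culture against 4.51 and 4.87 in splenocytes, a 155-fold difference. *Pdgfra*, the receptor that marks many tissue fibroblasts, read 8.37 and 8.82 against 4.58 and 4.80, at least 13.2-fold. *Lum*, encoding the proteoglycan lumican, read 7.86 and 7.67 against 4.41 and 4.40, at least 7.44-fold. In each of these 3 genes the groups were far apart and the paired arrays close together. *Pdgfrb*, the receptor shared by fibroblasts and mural cells, was lower on the scale, at 5.88 and 5.92 against 4.84 and 4.83, a 2.09-fold difference. *Serpinf1* rose by 5.64 on the log2 scale, *Fstl1* at least 25.6-fold and the intermediate filament *Vim*, which leukocytes also express, 3.10-fold. *Thy1*, a surface protein of both fibroblasts and T cells, was the listed gene that was not called, at 11.31 and 11.36 in culture and 11.37 and 11.35 in splenocytes (adjusted p = 0.904), although under 75th percentile scaling it was called higher (log2 change 0.48, adjusted p = 0.0369). The probe for *Col3a1*, a chain of type III collagen, read 4.88 and 5.11 in culture and did not pass the detection rule.

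Genes for the matrix itself and for the enzymes that finish collagen rose as groups. Of 27 matrix protein genes on the array, 21 were tested, 18 rose and none fell (median 2.98, and 8 higher of 9 detected in both groups). *Tnc*, which encodes tenascin C, read 11.03 and 10.81 in culture against 4.55 and 4.62, at least 66.5-fold. *Thbs2* rose at least 67.1-fold, *Fbln2* at least 82.3-fold and *Fn1*, fibronectin, 16.7-fold. Elastin (*Eln*) was an exception: it was detected on neither culture array (4.65 and 4.70) and read 4.92 and 4.84 in splenocytes. All 17 tested genes of collagen processing rose, of 18 on the array, with a median of 2.75, and all 8 detected in both groups were among them. *Lox*, the enzyme that cross-links collagen, read 10.57 and 11.06 against 4.53 and 4.45, at least 61.7-fold. *Serpinh1*, the collagen chaperone of the endoplasmic reticulum, rose 58.6-fold.

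Proteases that cut matrix and their inhibitors rose together with it. Of 20 genes on the array, 17 were tested and 16 rose, with a median log2 change of 3.63, and 10 of the 11 detected in both groups were higher. *Timp1*, which encodes a secreted inhibitor of matrix metalloproteinases, read 12.94 and 12.92 in culture and 5.87 and 5.87 in splenocytes, a 133-fold difference. *Mmp3*, stromelysin, read 11.01 and 10.90 against 4.51 and 4.50, at least 68.1-fold, and the collagenase *Mmp13* read 9.59 and 9.33 against 4.96 and 4.88, 23.2-fold. On each of these genes the paired arrays differed by less than 0.3 and the groups did not overlap. *Mmp14* rose 30.9-fold, *Mmp2* at least 33.2-fold, *Mmp12*, the macrophage elastase, at least 17.2-fold, and *Mmp9* 6.63-fold. *Plaur*, the receptor of the urokinase plasminogen activator, was not called.

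The promoters of *Mmp3* and *Mmp13* are shown because both genes were near or below the detection limit in splenocytes and high in culture, and both are textbook targets of AP-1, the factor family that binds TGACTCA. The RefSeq promoter windows of build GRCm38.p6 follow, written 5′ to 3′ on the gene's strand and ending at the transcription start, with the motif on either strand in capitals. The *Mmp3* window is chr9:7445731-7445821 on the plus strand and the *Mmp13* window chr9:7272434-7272513 on the plus strand.
Mmp3: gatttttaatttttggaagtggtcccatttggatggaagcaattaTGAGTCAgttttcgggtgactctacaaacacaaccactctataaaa
Mmp13: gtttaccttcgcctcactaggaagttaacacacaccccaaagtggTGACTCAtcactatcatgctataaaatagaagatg
The motif lies 40 bases before the start in *Mmp3*, where it reads on the opposite strand, and 29 bases before it in *Mmp13*. Searched on both strands from 250 bases before to 50 after the start, TGACTCA was found in 5 of the 11 genes of this list that had a promoter in the table (45.5%), against 5.95% of all 27025 promoters and 4.66% of those of 6868 tested genes. The others with a match were *Mmp10*, *Mmp12* and *Plaur*, of which *Plaur* was not called. Whether the motif goes with the rise was not tested. A match is a description of the sequence and no measurement of binding.

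Contractile genes were also carried by the culture, at unequal levels. Of 15 smooth muscle and myofibroblast genes on the array, 13 were tested, 11 rose and 1 fell (median 1.48, and 7 higher of 9 in both groups). *Acta2*, smooth muscle alpha actin, read 13.29 and 13.27 in culture and 6.28 and 5.66 in splenocytes, a 159-fold difference (log2 change 7.31 ± 0.20, SE). *Tagln*, transgelin, averaged 8.11 against 4.35 (SD 0.14 and 0.04, n = 2 each), at least 9.44-fold. *Tpm2* rose 56.1-fold and *Actg2* 50.2-fold. The later markers of the smooth muscle lineage stood close to the detection limit: *Myh11*, smooth muscle myosin, read 6.08 and 5.97 (at least 2.23-fold), desmin (*Des*) read 5.33 and 5.32 (at least 1.37-fold), and *Cnn1*, calponin, was detected on none of the 4 arrays. Of 7 pericyte genes on the array 4 were tested, and 1, the aminopeptidase *Anpep*, was called, at 8.30 and 9.10 against 5.28 and 5.49 (9.94-fold higher). *Anpep* is also expressed by fibroblasts and myeloid cells.

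Genes that mark the specialised stroma of lymphoid tissue divided. Of 17 on the array, 13 were tested, 8 rose and 5 fell (6 higher and 1 lower of 7 in both groups). Podoplanin (*Pdpn*), a glycoprotein of fibroblastic reticular cells that some macrophages also express, read 12.02 and 12.15 in culture and 5.53 and 6.45 in splenocytes, 68.0-fold higher. *Cxcl12*, the stromal chemokine that binds CXCR4, read 10.72 and 10.84 against 6.68 and 6.06, 21.3-fold higher. *Ltbr*, the receptor that the study deleted elsewhere, averaged 6.82 against 5.53 (SD 0.25 and 0.16), 2.46-fold higher, and both culture arrays detected it.

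Some other products of this stroma were low or undetected in the culture. The T-zone chemokine *Ccl21a* read 4.40 and 4.48 and the follicular chemokine *Cxcl13* 4.48 and 4.56, below detection on both culture arrays, against 5.45 and 5.42, and 5.86 and 5.65, in splenocytes. The marginal sinus addressin *Madcam1*, at 4.40 and 4.53, was likewise undetected. The splenocyte wash itself read low for these 3 genes, so the differences were small. *Clu*, encoding the extracellular chaperone clusterin that follicular dendritic cells express strongly, read 4.65 and 4.99 in culture, where 1 array detected it, and 7.50 and 7.19 in splenocytes, 5.77-fold lower. *Vcam1*, an adhesion molecule of stroma and of red pulp macrophages, read 9.49 and 9.84 against 10.77 and 10.78, 2.17-fold lower yet well above the detection limit. *Ch25h* (at least 13.6-fold), *Mfge8* (7.75-fold) and *Nkx2-3* (at least 2.25-fold), a homeobox gene of the spleen's mesenchyme, were higher in culture.

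**Figure D2:**
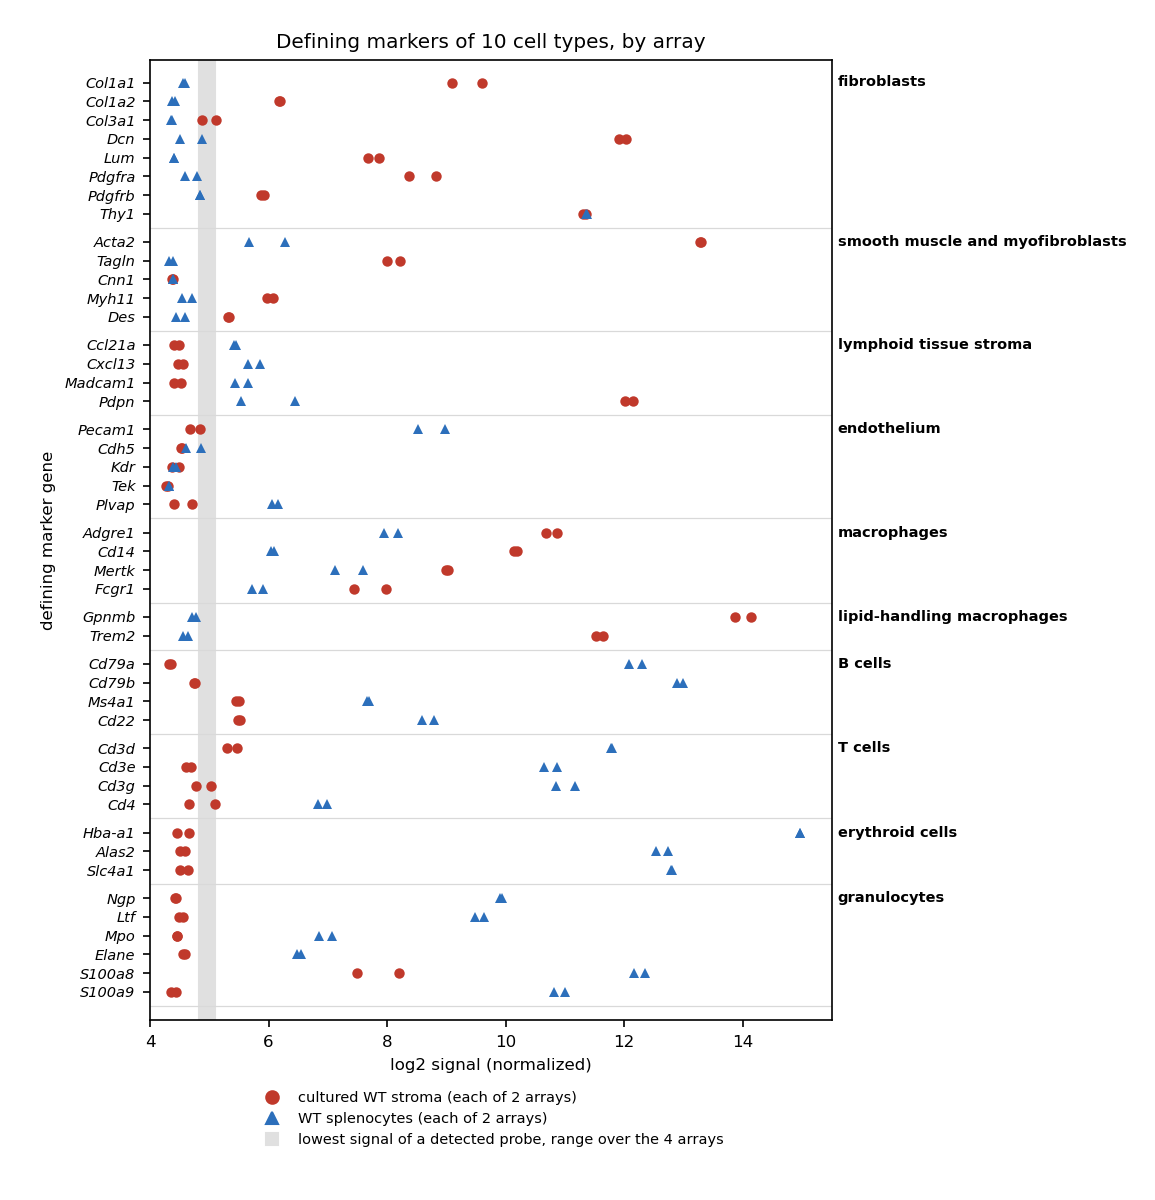
Log2 signal of the defining markers of 10 cell types on each culture array (red circles) and each splenocyte array (blue triangles), with the range of the lowest detected signal in grey. Most fibroblast, contractile and macrophage markers lie to the right in culture, and B cell, T cell, erythroid and granulocyte markers lie to the right in splenocytes. *Thy1* reads alike in both groups, and *Col3a1* is near the detection limit in culture. *Cnn1*, *Cdh5*, *Kdr* and *Tek* lie at or below the detection limit in both groups.

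Endothelial genes were mostly undetected in the culture. Of 26 on the array, 16 were detected on neither culture array. Of the 13 tested 8 fell and 3 rose (median -0.61, and 2 in each direction of 6 in both groups). *Pecam1*, a junction protein of endothelium that platelets and leukocytes share, read 4.67 and 4.85 in culture, below detection, and 8.51 and 8.98 in splenocytes, at least 13.6-fold lower. *Plvap*, a protein of endothelial fenestrae, was at least 2.18-fold lower, the tight junction gene *Cldn5* at least 2.16-fold lower, and the sinus scavenger receptor *Stab2* 4.75-fold lower. The lineage-defining genes *Cdh5*, *Kdr* and *Tek* passed the detection rule in neither group, and the *Kdr* probe was undetected in fresh stroma too. *Vwf* was higher in culture, at 8.43 and 8.17 against 6.73 and 6.50 (3.22-fold), as was *Eng*, a TGF-beta co-receptor, at 6.71 and 6.69 against 5.53 and 5.29 (2.44-fold). *Vwf* is also made by megakaryocytes, and *Eng* is also expressed by fibroblasts and macrophages, but the source of these transcripts in the culture was not tested. *Egfl7* was detected in both groups and not called, at 7.17 and 7.16 in culture against 7.35 and 6.97. *Podxl* was the other called higher, at 5.25 and 4.95 against 4.71 and 4.64, but its adjusted p of 0.0352 became 0.199 without culture replicate 1, 0.0869 without splenocyte replicate 1 and 0.147 without splenocyte replicate 2.

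Lists for other non-haematopoietic cells held few detected genes. Of 10 adipocyte genes on the array 4 were tested, and *Lpl* and *Cebpa*, which macrophages also express, were higher, at least 2.91-fold for *Cebpa*, whereas *Adipoq* and *Plin1* did not pass the detection rule. Of 14 bone and cartilage genes 4 were tested and 1 was called, *Sox9*, at 7.61 and 7.51 against 5.93 and 6.11 (2.90-fold higher). Of 11 mesothelial and epithelial genes 3 were tested and none rose. Of 11 neuronal and glial genes 4 were tested, and *Uchl1*, a ubiquitin hydrolase, read 8.41 and 8.11 against 4.36 and 4.69, at least 10.5-fold higher.

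Macrophage genes were the other large group that the culture carried. Of 25 on the array 21 were tested, 19 rose and none fell, with a median log2 change of 2.32. In both groups 20 of these genes were detected, 18 of them higher in culture. Several, such as *Tyrobp*, *Fcer1g* and *Lyz2*, are shared with granulocytes. *Adgre1*, which encodes the macrophage surface protein F4/80, read 10.68 and 10.86 in culture and 8.18 and 7.95 in splenocytes, 6.52-fold higher (log2 change 2.71). *Cd14*, the lipopolysaccharide co-receptor, read 10.19 and 10.14 against 6.10 and 6.03, 17.2-fold higher. *Fcgr1*, the high-affinity IgG receptor, read 7.44 and 7.98 against 5.90 and 5.71, 3.74-fold higher. The groups did not overlap for any of these genes.

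*Lyz2*, the lysozyme of myeloid cells, stood among the most intense probes of the culture at 14.65 and 14.65, against 11.42 and 11.41 in splenocytes (9.43-fold). The 3 chains of complement C1q, a product of tissue macrophages, rose together, by 8.08-fold for *C1qa*, 8.93-fold for *C1qb* and 8.99-fold for *C1qc*. *Fcgr3* rose 14.9-fold and *Mrc1*, the mannose receptor, 5.80-fold. *Aif1* (9.72 and 9.43 against 9.29 and 9.04) and *Cx3cr1* (5.94 and 6.09 against 5.60 and 5.58) were the tested members that were not called. *Csf1r* and *Cd68* are not analysed here, since no probe carried these symbols. Fibroblast and macrophage genes were thus both abundant in the same RNA, and bulk arrays do not show which cell carried which transcript.

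General leukocyte genes were divided. Of 16 on the array 15 were tested, of which 7 fell, 2 rose and 6 were not called, with a median of -0.46 (6 lower and 2 higher of 13 in both groups). *Laptm5*, a lysosomal protein of haematopoietic cells, was 2.18-fold higher, at 13.62 and 13.70 against 12.51 and 12.56. *Coro1a*, the leukocyte coronin, was 6.82-fold lower, at 10.39 and 10.26 against 13.02 and 13.17, and *Cd37*, a tetraspanin of lymphocytes, lower by 13-fold. The *Ptprc* probe read 4.73 and 4.73 in culture, below detection, and only 5.97 and 5.69 in splenocytes, although nearly all splenocytes carry CD45, so this probe says little of the level of its gene. The other gene called higher was *Itgb2*, at 6.72 and 7.21 against 6.16 and 6.48, whose adjusted p of 0.0117 became 0.106 without culture replicate 2 and 0.109 without splenocyte replicate 1.

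Genes of macrophages that take up and degrade lipid included the greatest single rise. Such cells, known from fat tissue, atheroma and demyelinated nerve, express the lipid-sensing receptor *Trem2*, the glycoprotein *Gpnmb*, apolipoprotein E and lysosomal lipases. Of 20 listed genes on the array 16 were tested, 13 rose and 3 fell, with a median of 3.22 (8 higher and 2 lower of 10 in both groups). *Gpnmb* read 14.14 and 13.87 in culture and 4.71 and 4.77 in splenocytes. Neither splenocyte array detected it, and the rise of at least 563-fold was the greatest among the genes higher in culture (log2 change 9.26 ± 0.21, adjusted p = 1.01e-10). Another probe of *Gpnmb* read 13.90 and 13.84 against 4.52 and 4.69. *Trem2* read 11.64 and 11.52 against 4.64 and 4.56, at least 105-fold higher.

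*Apoe*, already expressed in splenocytes, read 13.99 and 14.06 against 9.76 and 10.04, 17.4-fold higher. *Lpl*, lipoprotein lipase, rose 10.9-fold, the fatty acid binding protein *Fabp5* at least 10.8-fold, *Lgals3*, galectin 3, 8.03-fold and the lipid droplet coat protein *Plin2* 7.61-fold. Members that fell were *Nr1h3*, the sterol-sensing nuclear receptor, at 7.23 and 7.13 against 8.83 and 8.77 (3.08-fold lower), and *Itgax*, the integrin of dendritic cells, at 4.97 and 4.89 against 6.09 and 5.71 (1.96-fold lower, detected on 1 culture array). The third, *Abcg1*, changed by -0.47 on the log2 scale.

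Lysosomal genes rose almost throughout. Of 37 on the array 35 were tested, 32 rose and 1 fell (median 1.70), and because nearly all cells have lysosomes 33 were detected in both groups, 31 of them higher. *Cd63*, a tetraspanin of late endosomes, read 13.59 and 13.68 in culture and 8.05 and 7.82 in splenocytes, 51.9-fold higher. *Ctsd*, the aspartic protease cathepsin D, read 13.45 and 13.12 against 9.45 and 9.90, 12.2-fold higher, and *Lamp1*, the main membrane protein of lysosomes, 12.66 and 13.17 against 10.53 and 10.84, 4.69-fold higher. Acid hydrolases followed, among them *Gusb* (7.82-fold), *Hexa* (6.11-fold) and *Psap*, the saposin precursor (3.18-fold). Of the pair of transporters that move cholesterol out of the lysosome, *Npc2* was 5.11-fold higher, while *Npc1* was 3.48-fold lower and detected on 1 culture array. *Ctsk*, which is shared with fibroblasts and osteoclasts, read 8.94 and 8.59 against 4.77 and 4.52.

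Promoter stretches of *Ctsd* and *Lamp1* are printed because many lysosomal genes carry the element bound by TFEB, whose core is TCACGTG. That of *Lamp1* ends at the transcription start, and that of *Ctsd* stops upstream of it. Both are RefSeq sequences of GRCm38.p6 on the gene's strand, 5′ to 3′, with each match on either strand in capitals. The *Ctsd* window is chr7:142387874-142388077 on the minus strand and the *Lamp1* window chr8:13159054-13159160 on the plus strand.
Ctsd: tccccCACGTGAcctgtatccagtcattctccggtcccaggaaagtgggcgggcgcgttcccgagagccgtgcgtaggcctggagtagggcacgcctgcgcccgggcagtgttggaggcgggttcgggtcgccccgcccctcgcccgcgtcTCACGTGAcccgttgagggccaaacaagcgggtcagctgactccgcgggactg
Lamp1: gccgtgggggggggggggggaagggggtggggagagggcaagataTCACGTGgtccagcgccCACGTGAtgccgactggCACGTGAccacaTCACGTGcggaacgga
*Ctsd* held 3 matches, of which a pair overlap on opposite strands, and *Lamp1* held 4. Of the 31 lysosomal genes with a promoter in the table, 8 held TCACGTG on either strand (25.8%), against 4.29% of all promoters and 6.68% of those of the tested genes. The other 6 were *Ctsa*, *Gaa*, *Glb1*, *Atp6v0d1*, *Mcoln1* and *Cln3*. All were higher in culture, but so were 32 of the 35 tested genes of the list. Whether the motif goes with the rise was not tested.

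Genes of red pulp macrophages and iron handling, and of marginal zone macrophages, moved in both directions. Of 16 genes of red pulp macrophages and iron handling on the array 14 were tested, 6 rose and 5 fell (6 and 3 of 12 in both groups). *Spic*, the transcription factor that specifies red pulp macrophages, read 4.40 and 4.37 in culture, undetected, and 6.64 and 6.49 in splenocytes, at least 3.00-fold lower. *Treml4* was at least 5.52-fold, *Hpgd* 2.33-fold, *Vcam1* 2.17-fold and *Slc40a1* 1.83-fold lower. The 6 that rose were *Slc11a1*, *Blvra*, *Ftl1*, *Fth1*, *Trf* and *Slc11a2*. Transcripts of ferritin, the iron storage protein, were higher: *Fth1*, the heavy chain, read 14.96 and 14.96 against 12.27 and 12.14 (6.77-fold), where 14.96 is the top of the normalized scale and bounds the fold, and *Ftl1* rose 3.08-fold. *Hmox1*, the enzyme that opens haem, read 11.42 and 12.30 in culture and 11.86 and 11.98 in splenocytes, overlapping between the groups and not called. Of 6 marginal zone macrophage genes on the array 5 were tested, 1 rose and 3 fell (median -0.49). Neither culture array detected 5 of the 6. *Siglec1*, the sialoadhesin of metallophilic macrophages, was the gene that rose, at 7.69 and 7.20 against 4.99 and 4.85 (5.76-fold). *Marco* was at least 1.45-fold lower.

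Lists of other myeloid cells differed from each other. Of 13 dendritic cell genes 10 were tested, 7 fell and 2 rose (median -0.50), but of the 3 detected in both groups 2 rose and 1 fell (median 0.49). *Irf8*, a factor that dendritic cells need, was 4.25-fold lower at 7.08 and 7.16 against 9.19 and 9.23, and *Ccr7*, the receptor for lymph node homing, read 4.97 and 4.64 against 9.96 and 10.24, at least 34.8-fold lower. Of 11 osteoclast genes 6 were tested, 3 rose and 2 fell (2 and 1 of 3 in both groups). Those higher were *Ctsk*, *Mmp9* and *Tnfrsf11a* (2.08-fold), of which *Ctsk* and *Mmp9* belong to other lists as well. *Nfatc1*, the factor that drives osteoclast formation, was 2.42-fold lower, and *Calcr*, *Dcstamp* and *Acp5* did not pass the detection rule. Of 17 granulocyte genes on the array 14 were tested, 13 fell and none rose (median -3.46, and 3 lower of 4 in both groups). *S100a9* fell at least 61.0-fold and *Ngp*, a protein of neutrophil granules, read 4.44 and 4.41 against 9.94 and 9.90, at least 30.7-fold lower. *S100a8*, whose protein pairs with that of *S100a9*, was still detected in culture at 8.20 and 7.48, against 12.36 and 12.17 in splenocytes (21.4-fold lower). *Lcn2*, made by neutrophils, macrophages and fibroblasts, was not called, at 9.35 and 9.60 against 9.86 and 9.86.

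Lymphocyte genes were mostly lower in culture, where many were undetected. All 19 tested B cell genes of 21 on the array fell (median -4.19), 13 of the 21 were detected on neither culture array, and all 7 detected in both groups were lower. *Cd79b*, a signalling chain of the B cell receptor, read 4.74 and 4.75 in culture and 12.99 and 12.89 in splenocytes, at least 249-fold lower, and its partner *Cd79a* was at least 148-fold lower. The Fc receptor for IgM, *Fcmr*, was at least 193-fold lower. Those 7 differed in how far they fell. *Ms4a1*, encoding CD20 (4.58-fold lower), and *Cd22* (9.15-fold lower) were near the detection limit in culture. *Cd72*, an inhibitory co-receptor, read 9.57 and 9.79 against 11.02 and 11.05 (2.56-fold lower). *Ly86*, a partner of the toll-like protein RP105, read 8.93 and 8.56 against 9.93 and 9.66 (2.07-fold lower), so both stayed well above the limit. *Blnk* did too, averaging 9.73 against 10.42 (1.61-fold lower). Which cells of the culture carried these transcripts was not tested. Of 8 plasma cell genes on the array 6 were tested, 4 fell and 1 rose (median -1.86). *Mzb1*, a secretory chaperone of marginal zone B cells and plasma cells, was at least 132-fold lower. *Sdc1* was higher, at 5.63 and 5.97 against 4.71 and 4.75 (at least 1.91-fold). *Xbp1*, the 1 member detected in both groups, was not called.

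All 19 T cell genes on the array were tested, 18 fell and 1 rose (median -3.43, and 2 lower and 1 higher of 3 in both groups), and 12 were detected on neither culture array. *Cd3d*, a chain of the T cell receptor complex, read 5.46 and 5.29 in culture, just above the detection limit, and 11.78 and 11.79 in splenocytes, 84.9-fold lower. *Cd3e* was at least 54.7-fold and *Cd8b1* 120-fold lower. *Cd28*, the co-stimulatory receptor, went the other way, at 8.06 and 7.62 in culture against 6.49 and 6.76 (2.32-fold higher, adjusted p = 0.00267). Of 15 genes of natural killer and cytotoxic cells 9 were tested and 8 fell (4 of 4 in both groups), with *Nkg7*, a protein of cytotoxic granules, 61.9-fold lower.

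Red cell genes held the largest single difference of the comparison. All 16 tested erythroid genes of 17 on the array fell (median -4.14, with both members detected in both groups among them), and 15 of the 17 were detected on neither culture array. *Hba-a1*, alpha globin, read 4.65 and 4.45 in culture and 14.96 and 14.96 in splenocytes, at least 1011-fold lower (log2 change -10.41 ± 0.14, adjusted p = 1.63e-11). The value 14.96 is the ceiling that quantile normalization gives to the most intense probe of every array, so the fold of *Hba-a1* cannot exceed that ceiling. *Slc4a1*, the anion exchanger of the red cell membrane, was at least 225-fold lower, and *Alas2*, the first enzyme of haem synthesis in erythroid cells, at least 202-fold lower. Of 11 platelet and megakaryocyte genes 7 were tested, 4 fell and 2 rose (3 lower of 4 in both groups). *Pf4*, a platelet chemokine that macrophages also make, read 8.80 and 9.63 against 5.18 and 4.65, 19.7-fold higher.

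**Figure D3:**
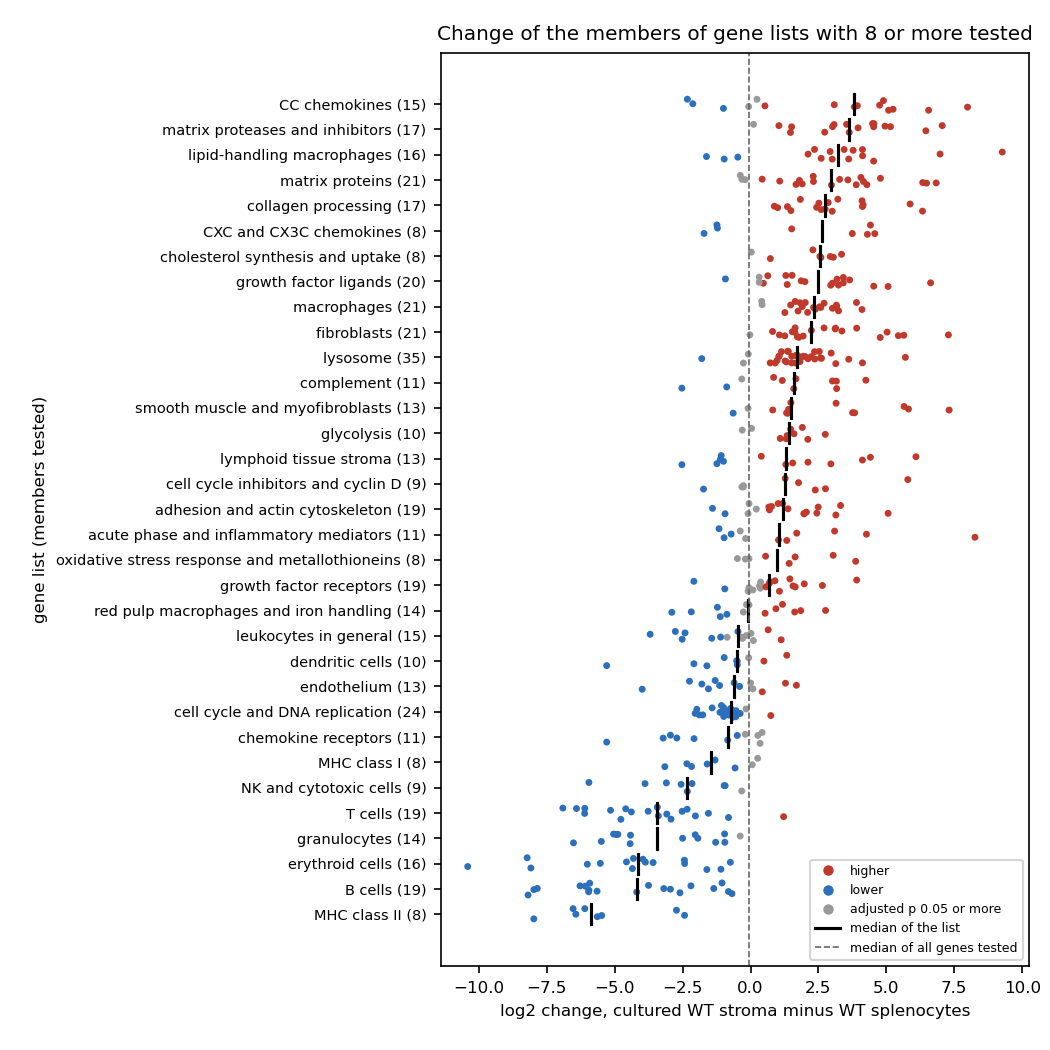
Log2 change (cultured WT stroma minus WT splenocytes) of every tested member of the gene lists with 8 or more tested members, red where higher, blue where lower and grey where not called, with the list's median as a bar and the median of all genes dashed. MHC class II (-5.87), B cell (-4.19) and erythroid (-4.14) lists lie lowest, and CC chemokines (3.82), matrix proteases (3.63) and lipid-handling macrophages (3.22) highest. Among members detected in both groups these medians were -4.42, -1.35 and -1.35, and 3.45, 3.63 and 2.76. By that measure granulocytes (-2.68) and T cells (-2.33) lie below B cells, so the order depends on genes detected in 1 group only.

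The culture was low in the MHC class II genes, through which B cells, dendritic cells and activated macrophages present peptides to helper T cells. All 8 genes on the array were tested and all fell (median -5.87, with all 4 detected in both groups among them). *H2-Aa* read 4.56 and 4.71 in culture, undetected, and 11.27 and 10.87 in splenocytes, at least 67.9-fold lower, and *H2-Eb1* was at least 201-fold lower. *H2-Ab1* (7.33 and 7.49 against 13.45 and 13.58, 68.7-fold lower) and the invariant chain *Cd74* (6.73 and 7.36 against 13.54 and 13.62, 92.6-fold lower) remained detectable in culture. *Ciita*, the co-activator that switches the class II genes on, read 4.41 and 4.52 against 10.08 and 10.14, at least 35.1-fold lower. In MHC class I presentation 6 of 8 tested genes fell and none rose, among them the peptide transporter *Tap1* (8.92-fold), the immunoproteasome subunit *Psmb9* (4.51-fold) and the co-activator *Nlrc5* (5.08-fold). *B2m*, the light chain of class I, was not called, at 13.66 and 13.52 against 13.32 and 13.34.

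*H2-Aa* and *H2-Eb1* are shown with their promoters because class II genes share a compact set of elements upstream of the start, of which the Y box, CTGATTGG, binds NF-Y. The RefSeq windows of GRCm38.p6 are on the gene's strand, 5′ to 3′, with the Y box in capitals. They span chr17:34287824-34287919 on the minus strand for *H2-Aa* and chr17:34305760-34305857 on the plus strand for *H2-Eb1*.
H2-Aa: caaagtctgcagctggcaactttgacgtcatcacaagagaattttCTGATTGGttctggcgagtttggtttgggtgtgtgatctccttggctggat
H2-Eb1: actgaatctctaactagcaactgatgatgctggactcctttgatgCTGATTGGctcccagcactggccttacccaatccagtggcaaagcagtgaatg
The box ends 44 bases before the start in *H2-Aa* and 55 in *H2-Eb1*, whose printed window stops short of the start. Of the 5 class II genes with a RefSeq promoter, 3 held CTGATTGG on either strand (60.0%), the other being *H2-Oa*, against 4.70% of all promoters and 6.23% of those of tested genes.

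Genes for secreted growth factors and for their receptors were listed apart. Of 30 ligand genes on the array 20 were tested, 17 rose and 1 fell (median 2.48, and 7 higher and 1 lower of 10 in both groups). Of 26 receptor genes 19 were tested, 11 rose and 2 fell (median 0.68, and 8 higher and 1 lower of 14 in both groups). *Csf1*, the survival factor of macrophages, read 8.40 and 7.91 in culture and 4.72 and 4.77 in splenocytes, at least 9.76-fold higher. *Gas6*, the ligand by which the receptors MERTK and AXL recognise dying cells, read 11.93 and 12.31 against 5.49 and 5.49, 98.8-fold higher, and *Pros1*, the other such ligand, rose at least 11.3-fold. *Mertk*, at 8.99 and 9.02 against 7.12 and 7.60, was 3.12-fold and *Axl* 1.60-fold higher.

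For platelet-derived growth factor both sides were present: *Pdgfa* rose 9.42-fold, at 8.13 and 8.36 against 4.93 and 5.08, beside the receptor genes given above. *Igf1* averaged 9.95 against 6.93 (8.09-fold) and its receptor *Igf1r* was 1.86-fold higher. *Vegfa*, the endothelial growth factor, rose 10.7-fold, whereas its receptor *Flt1* was not called. The *Kdr* probe was detected on none of the 8 arrays, fresh stroma included, so it says little of the level of its gene. *Fgf10* rose at least 17.7-fold, *Ccn2*, connective tissue growth factor, at least 24.9-fold and *Csf3* at least 6.33-fold. *Kit*, the receptor of stem cell factor, was at least 3.73-fold lower. The ligand called lower was *Tgfb1*, at 7.72 and 8.54 against 8.84 and 9.27, whose adjusted p of 0.00654 became 0.0660 without culture replicate 1 and 0.0733 without splenocyte replicate 2. Of 5 genes for insulin-like growth factor binding proteins on the array 4 were tested and 3 rose, *Igfbp7* by 14-fold.

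**Figure D4:**
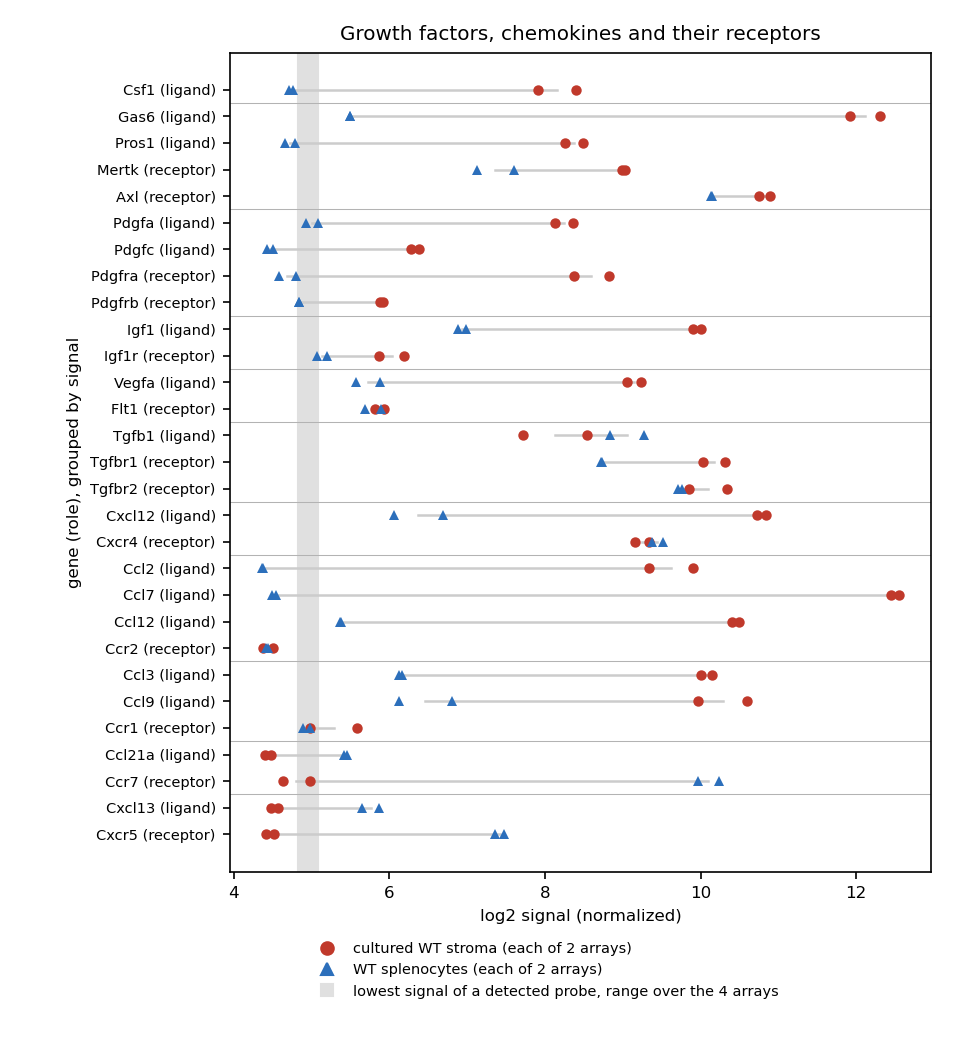
Log2 signal of growth factor and chemokine genes and of their receptors on each culture array (red circles) and each splenocyte array (blue triangles), with a grey line joining the group means and lines between signalling groups. *Gas6* and *Ccl7* have the longest lines, while the receptor genes *Flt1*, *Cxcr4* and *Ccr2* have overlapping or adjacent points. Those of *Ccr2* lie below the detection limit. *Ccr7* and *Cxcr5*, receptors of lymphocytes, lie to the right in splenocytes.

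Most tested CC chemokine genes were higher in the culture. Of 18 CC chemokine genes on the array 15 were tested, 10 rose and 3 fell (median 3.82, and 6 higher and 1 lower of 8 in both groups). *Ccl7*, a ligand of CCR2 that attracts monocytes, read 12.44 and 12.56 in culture and 4.54 and 4.49 in splenocytes, at least 198-fold higher. The related *Ccl2* read 9.33 and 9.90 against 4.37 and 4.38 (at least 26.9-fold) and *Ccl8* averaged 10.90 against 4.35 (at least 65.4-fold). These 3 genes were undetected on both splenocyte arrays and were well above the detection limit in culture. The mouse chemokines *Ccl12*, *Ccl6* and *Ccl9* rose 33.8-, 26.9- and 14.1-fold, the macrophage inflammatory proteins *Ccl3* and *Ccl4* 15.2- and 8.46-fold, and the eosinophil attractant *Ccl11* at least 21.2-fold. *Ccl5*, a product of cytotoxic lymphocytes, was 5.02-fold lower, and the eosinophil attractant *Ccl24* at least 2.88-fold lower.

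Of 16 CXC and CX3C genes 8 were tested, 5 rose and 3 fell (2 in each direction of 4 in both groups). *Cxcl1*, which attracts neutrophils, read 9.18 and 9.05 against 4.63 and 4.45, at least 19.0-fold higher, and *Cxcl16* rose 13.4-fold. *Cxcl9*, a target of interferon gamma, was 3.28-fold and the neutrophil attractant *Ppbp* 2.33-fold lower, and *Cxcl2*, *Cxcl3* and *Cxcl5* were detected on none of the 4 arrays. None of 11 tested chemokine receptor genes rose and 7 fell (median -0.84, with 1 lower of 4 in both groups), with *Cxcr5*, the B cell receptor for CXCL13, at least 5.42-fold lower and *Cxcr3* 4.23-fold lower. The probe of *Ccr2*, the receptor of CCL2 and CCL7, was detected on none of the 8 arrays, so it says little of the level of its gene. *Cxcr4* was not called, at 9.16 and 9.34 against 9.38 and 9.51.

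Genes of the cell cycle were mostly lower in the culture. Of 28 on the array 24 were tested, 20 fell and 1 rose (median -0.72), with 18 of the 22 detected in both groups lower. *Mcm7*, a subunit of the replicative helicase, read 7.38 and 7.32 in culture against 9.39 and 9.39 (4.11-fold lower), and *Mcm5* and *Mcm2* were 3.94- and 3.39-fold lower. *Birc5*, survivin, averaged 7.96 against 9.85 (3.72-fold lower) and *Top2a* 6.60 and 6.34 against 7.66 and 8.10 (2.67-fold lower). *E2f1* was the gene that rose, by 1.67-fold. These genes remained detected in culture, so the differences were of degree. Splenocytes of the mouse include dividing red cell precursors, whose genes moved in the same direction, and their part in this result was not tested.

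Several inhibitors of the cell cycle were higher in culture. Of 10 genes for inhibitors and D cyclins 9 were tested, 5 rose and 1 fell (median 1.27, and 4 higher and 1 lower of 8 in both groups). *Cdkn1a*, which encodes the p53 target p21, read 10.84 and 11.03 in culture and 5.27 and 5.02 in splenocytes, 55.3-fold higher. The neighbours *Cdkn2b* and *Cdkn2a*, whose products hold cells in G1, read 8.27 and 7.92 against 5.44 and 5.24 (6.76-fold) and 7.06 and 7.29 against 4.66 and 4.93 (5.21-fold, detected on 1 splenocyte array). *Ccnd1*, the cyclin of fibroblasts, was 3.40-fold higher, and *Cdkn2d* 3.32-fold lower.

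Cytoskeletal and secretory genes gave further differences. Of 20 genes of adhesion and the actin cytoskeleton 19 were tested, 14 rose and 2 fell (median 1.18, and 7 higher and 2 lower of 12 in both groups), with *Itgb5*, the integrin chain for vitronectin, 9.93-fold higher. Of 14 complement genes 11 were tested, 8 rose and 2 fell (median 1.59, and 5 higher and 1 lower of 7 in both groups), with the C1 inhibitor *Serping1* at least 17.3-fold higher. Of 19 acute phase and inflammatory genes 11 were tested, 6 rose and 3 fell (median 1.03), whereas of the 6 detected in both groups 2 rose and 3 fell (median -0.55). *Saa3*, the serum amyloid A of macrophages and stromal cells, read 13.91 and 13.91 in culture and 5.81 and 5.48 in splenocytes, 307-fold higher. *Arg1*, arginase, read 8.78 and 8.60 against 4.41 and 4.44 (at least 14.2-fold) and the prostaglandin synthase *Ptges* rose at least 6.74-fold, whereas *Il1b* was 2.24-fold lower and *Nos2* and *Il6* did not pass the detection rule.

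The levels of the culture differed from those of fresh stroma, a difference described here without a test. Fresh stroma was what remained on the mesh, whereas the culture was plated from whole spleens. *Col1a1* and *Dcn* differed by less than 1 on the log2 scale between cultured and fresh WT stroma (*Col1a1* averaged 9.34 and 9.45, and *Dcn* 11.97 and 11.14). *Myh11*, *Eln*, *Ccl21a*, *Cxcl13*, *Clu* and *Plvap*, all far higher in fresh stroma, were near or below the detection limit in culture. *Gpnmb* (6.76 in fresh WT stroma), *Trem2* and *Lum* (4.69, undetected) were far higher in culture. Fresh stroma of both genotypes still carried *Hba-a1* and *Cd79b* at the level of splenocytes or close to it, whereas the culture had neither.

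**Figure D5:**
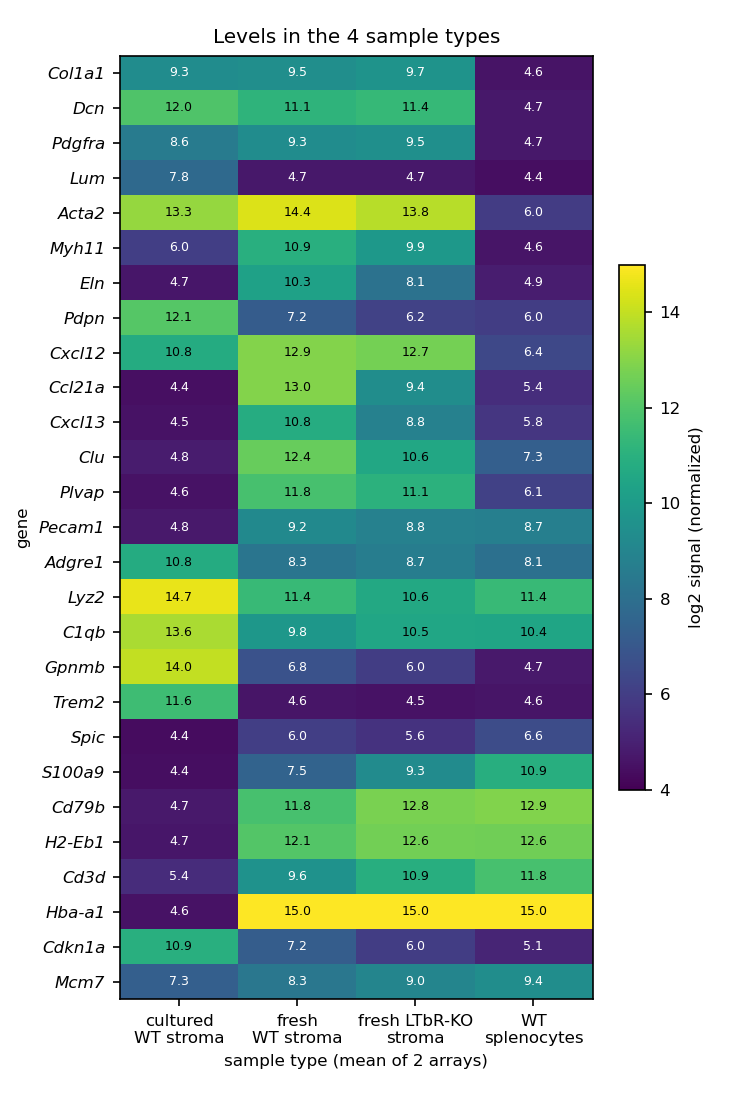
Mean log2 signal (2 arrays each) of selected genes in cultured WT stroma, fresh WT stroma, fresh LTbR-KO stroma and WT splenocytes, printed in each cell and coded by colour. The culture column shares *Col1a1*, *Dcn* and *Acta2* with both fresh stroma columns, and stands alone in its high *Gpnmb* and *Trem2* and in its low *Hba-a1* and *H2-Eb1*.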

How the data were processed

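Illumina MouseRef-8 bead arrays were hybridized with biotinylated cRNA made from 400 ng of total RNA. The authors read them with GenomeStudio and deposited, for each probe and array, a bead intensity without normalization and a detection p-value, and separately linear intensities after cubic-spline normalization and background subtraction, used here only as an alternative. The deposited intensities were corrected and quantile normalized with neqc of limma 3.58.1 in R 4.3.3 (offset 16, background inferred from the detection p-values), which returns log2 signals. One linear model over the 8 arrays in 4 groups was fitted with lmFit and eBayes, and p-values were adjusted by Benjamini-Hochberg over the 11569 probes, with 0.05 as threshold. Each gene was represented by its brightest tested probe over the 4 arrays compared. A probe symbol came from the platform annotation, which named 1 gene for 20984 probes, several for 1 and none for 3628, and 20968 symbols were in RefSeq. The genes named are the defining markers, the members of 44 lists that answer a comparison, and the 15 genes with the largest called change in each direction. Members and lists were chosen with earlier results of these data known. The fit was tested on simulated data. Of 14 motif spellings searched, 3 are shown. Alternatives were other background corrections, scalings, detection limits and array sets, the 4 arrays alone, a replicate block, a fold threshold, and leaving out each array. The replicate numbers pair samples only by label. Figures were drawn with matplotlib 3.10.9.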

Additional observations from a re-analysis of the deposited data

How the results depend on the processing

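The numbers of called probes (3599 higher, 3682 lower) stayed within 1.5 times of these under every alternative run except a required fold over 2, which left 2017 higher and 1828 lower. With a replicate block the numbers were 3593 and 3688, and the block changed 2 of the 511 tested list genes' calls. Most other settings changed more of these calls, as did leaving out any array. Without background correction 11 calls were lost and 3 gained, and with cyclic loess 9 were lost and 7 gained. A required fold over 2 lost 78. Leaving out each array gave 3101 to 3449 probes higher and 3090 to 3315 lower, 20 to 21 fibroblast, 19 macrophage, 13 lipid-handling and 31 to 33 lysosomal genes higher, 18 to 19 B cell, 18 T cell and 14 to 16 erythroid genes lower, and 9 to 10 endothelial genes called. Among single genes, *Thy1* (-0.03, not called) became 0.48 under 75th percentile scaling. *Ank1* (-3.87) was -3.80 without culture replicate 2, and became 0.47 without splenocyte replicate 1 and 0.32 without replicate 2, where another probe of the gene was the brightest. The median log2 change of all tested probes lay between -0.09 and 0.05 over these settings, and 49.4% of calls were higher, against 55.4% with cyclic loess. With 2 arrays a group, a gene near the detection limit has only a bound, and the shared top value of 14.96 limits the folds of the most abundant transcripts.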

Other observations

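Metabolic genes outside the cell type comparison also differed. Of 12 glycolysis genes on the array 10 were tested, all in both groups, and 8 rose while none fell (median log2 change 1.41), with hexokinase 2 (*Hk2*) at 10.35 and 10.31 in culture against 7.67 and 7.50 in splenocytes, 6.72-fold higher. Of 11 genes of cholesterol synthesis and uptake 8 were tested and 7 rose (median 2.57). *Sqle*, squalene epoxidase, read 10.49 and 10.36 against 7.07 and 7.08 (10.2-fold), *Cyp51* rose 8.27-fold and *Hmgcs1* 5.87-fold. Of 10 genes of the oxidative stress response and metallothioneins 8 were tested and 5 rose, with *Srxn1*, sulfiredoxin, at 9.28 and 9.07 against 5.27 and 5.34 (14.6-fold) and the metallothionein *Mt1* 8.23-fold higher.

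Some of the largest rises fell in no list. The gene for the peptide hormone cholecystokinin, *Cck*, read 11.04 and 11.16 in culture and 4.47 and 4.57 in splenocytes, at least 75.3-fold higher, and neuropeptide Y (*Npy*) averaged 11.05 against 4.42 (SD 0.07 and 0.06, n = 2 each), at least 72.8-fold higher. The small heat shock protein *Cryab* averaged 11.03 against 4.66 (SD 0.04 and 0.14), at least 71.5-fold higher, and *Fcrls*, a macrophage and microglial surface protein of the mouse, 12.51 and 12.38 against 4.42 and 4.49, at least 191-fold higher. None of these 4 genes was detected on a splenocyte array.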
